A study of Rattus norvegicus with 2 samples.

Results

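Oxidative phosphorylation genes were followed in cochlear duct cells of newborn Sprague-Dawley rats. The members were chosen by symbol: every gene whose symbol starts with Nduf, Uqcr, Cox4 to Cox8 or Atp5, the 4 genes Sdha, Sdhb, Sdhc and Sdhd, cytochrome c (Cycs), and every gene of the mitochondrial genome that starts with Mt-. This gave 112 of the 32623 genes listed, of which 99 are encoded in the nucleus and 13 in the mitochondrial genome. One library was made from cells of postnatal day 1 (P1) and 1 from cells of postnatal day 7 (P7), each from pooled untreated rats of the same strain, with no replicate. Age, library, dissection and the animals pooled therefore cannot be told apart, and no test between the ages was possible. Intervals are exact at the 95% level and cover counting error only.

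The respiratory chain passes electrons from NADH and succinate to oxygen through complexes I to IV, and complex V (ATP synthase) uses the proton gradient this builds to make ATP. Most subunits are encoded in the nucleus, whereas a small core of complexes I, III, IV and V is encoded in the mitochondrial genome and transcribed inside the organelle. Complex II (succinate dehydrogenase) is encoded in the nucleus alone. In the cochlea, hair cells, neurons and the stria vascularis are known for a high demand for ATP.

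What was counted is the unique molecular identifier (UMI), 1 per captured transcript. The P1 library gave 12779 cells under the study's limits, which ask for over 500 but under 5000 detected genes, for 500 UMIs or more, and for under 25% of UMIs from mitochondria, and the P7 library 12581, with medians of 6565 and 6878 UMIs per cell. These numbers of cells differ from those the paper reports after its own filtering, and the mitochondrial limit was computed here from the Mt- genes alone. Levels of nuclear members are given as counts-per-million values (CPM) over the UMIs outside the mitochondrial genome, and those of the mitochondrial genes as CPM over all UMIs. The labels name greater epithelial ridge cells, yet the gate of epithelial-like cells held 156 cells at P1 (1.22% of kept cells) and 90 at P7 (0.715%), and most gated cells were fibroblast-like or glia-like. A total of 60 barcodes occurred in both libraries. Cells were assigned by marker lists to gates named after the list, such as pericyte-like cells. In gates of at least 50 cells, 2 to 8 of the 10 leading genes were markers of the gate's own list, and none was a marker of another list. Since the same markers set the gates, this does not test what the cells are. Cytosolic ribosomal protein transcripts made up 23.4% of nuclear UMIs at P1 and 17.6% at P7, a difference that raises the other shares at P7. Without these and the haemoglobin genes in the denominator, each log2 ratio of P7 to P1 over all kept cells was lower by 0.10 for nuclear genes and by 0.08 for mitochondrial genes.

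Over all kept cells the mitochondrial part was higher at P7, and the nuclear part was slightly lower. The 13 mitochondrial genes took 7.51% (7.51 to 7.52) of all UMIs at P1 and 8.73% (8.72 to 8.73) at P7, a log2 ratio of 0.22. The 99 nuclear members together took 3.15% of nuclear UMIs at P1 and 3.01% at P7, a log2 ratio of -0.07. This direction did not hold without the neuron gate, which held 331 cells at P1 and 25 at P7. Without it the nuclear share was 2.95% at P1 and 3.002% at P7 (log2 ratio 0.024), while the mitochondrial share was 7.17% and 8.73% (log2 ratio 0.28). The direction of the nuclear sum also turned with gates weighted equally (0.016) and among cells of 4000 to 10000 UMIs (0.017).

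Of the 99 nuclear members, 86 reached 10 CPM in at least 1 library, the minimum for a comparison. At P7, 16 of these 86 were at least 25% higher (background 38.7% of all nuclear-genome genes tested) and 8 were at least 20% lower (background 24%). Both shares, 18.6% and 9.30%, lay below the background, and most members differed by less than these limits. Here and in the gates, the background holds all nuclear-genome genes over 10 CPM and was not matched to the members for level. The median log2 ratio was -0.01 over the 86 members and 0.15 over all genes tested. With ribosomal protein and haemoglobin genes out of the denominator the split became 10 higher and 19 lower. The 8 lower members were 4 without neurons, where they were Ndufa6, Cox7a2l, Atp5mf and Cox6a1, and also 4 with gates weighing the same and in cells of 4000 to 10000 UMIs, beside 19, 18 and 20 higher ones. Without the upper gene limit the split was 13 higher and 17 lower.

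**Figure D1:**
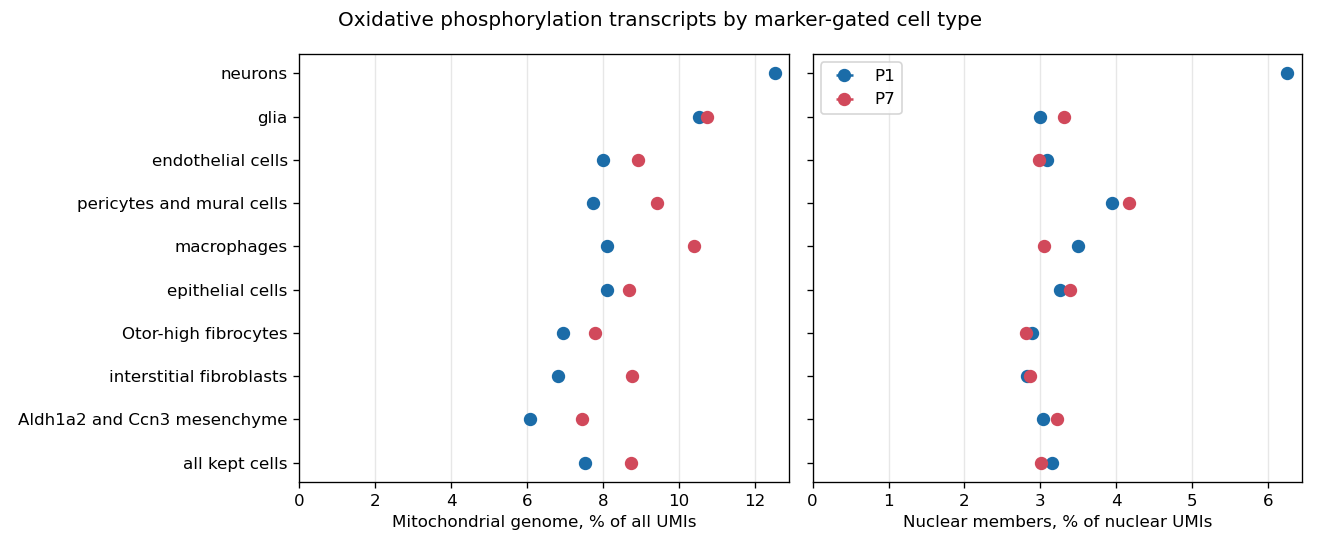
Share of UMIs from the 13 mitochondrial genes (left, % of all UMIs) and from the 99 nuclear members (right, % of UMIs outside the mitochondrial genome) in each marker gate at P1 (blue) and P7 (red). Bars give counting intervals and are narrower than the points. The mitochondrial share was higher at P7 in each of the 8 gates with both ages, whereas the nuclear share was lower in macrophages, endothelial cells and Otor-high fibrocytes.

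Within the mitochondrial genome, the genes went in different directions, although all but Mt-nd6 are cut from a shared precursor RNA. Mt-nd1, a core subunit of complex I, was at 6686 CPM at P1 and 2803 at P7, a log2 ratio of -1.254. Mt-co3, of complex IV, was at 14937 and 11542 (log2 ratio -0.37), and the complex I gene Mt-nd3 at 710 and 547 (-0.38). The complex IV genes Mt-co1 and Mt-co2 went the other way, from 6087 to 9091 (0.58) and from 11734 to 19313 (0.72). Genes of 1 complex were thus found on both sides.

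The complex III and V genes of the mitochondrial genome were all higher at P7. Mt-cyb, the cytochrome b of complex III, was at 8586 at P1 and 13390 at P7 (log2 ratio 0.64). Mt-atp6 was at 12611 and 17404 (0.46) and the overlapping Mt-atp8 at 50.6 and 104 (1.04), both subunits of ATP synthase. Among the remaining complex I genes, Mt-nd4l was higher (from 197 to 407, log2 ratio 1.05), as was Mt-nd6 (97.5 and 115, 0.24). Mt-nd2 (-0.11), Mt-nd4 (-0.08) and Mt-nd5 (-0.11) lay close to 0. Mt-atp8 overlaps Mt-atp6 and Mt-nd4l overlaps Mt-nd4, so that their reads may be split between the pair. In all, 6 of the 13 were at least 25% higher (background 38.7% of nuclear-genome genes) and 3 at least 20% lower (background 24%). With the other denominator none of the 13 changed direction.

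For 11 of the 13 genes, the share of the mitochondrial UMIs shifted in the same direction in all 8 gates that held at least 50 cells at both ages. Mt-nd1 made up 8.90% of the mitochondrial UMIs at P1 and 3.21% at P7, and its share over the gates ranged from 7.36% to 9.31% in the P1 library and from 2.90% to 3.56% in the P7 library. The share of Mt-co2 went from 15.6% to 22.1%, with gates from 15.1% to 18.1% at P1 and from 21.6% to 24.1% at P7. The ranges of the ages therefore did not overlap for either gene, nor for Mt-co3 (18.3% to 21.3% at P1, 12.3% to 13.6% at P7). They also stood apart for Mt-cyb, Mt-atp6, Mt-atp8 and Mt-nd3, but overlapped for Mt-co1, Mt-nd2, Mt-nd4, Mt-nd4l, Mt-nd5 and Mt-nd6. The share of Mt-nd1, Mt-nd2, Mt-nd3, Mt-nd4 and Mt-co3 was lower at P7 in 8 of 8 gates, and that of Mt-co1, Mt-co2, Mt-cyb, Mt-atp6, Mt-atp8 and Mt-nd4l was higher in 8 of 8. The share of Mt-nd5 was higher at P7 in 1 of 8 gates, with log2 ratios from -0.56 in interstitial fibroblasts to 0.02 in pericytes. That of Mt-nd6 was higher in 7 of 8, from -0.22 in interstitial fibroblasts to 0.35 in epithelial cells. The gates of 1 age come from 1 library, so they are not replicates of the age. The barcodes removed for 25% or more mitochondrial UMIs, 678 at P1 and 969 at P7, gave values close to these: Mt-nd1 took 8.96% of their mitochondrial UMIs at P1 and 3.85% at P7, Mt-co2 16.8% and 22.6%, and Mt-co3 19.6% and 12.8%. The part that library preparation has in this shift was not tested.

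**Figure D2:**
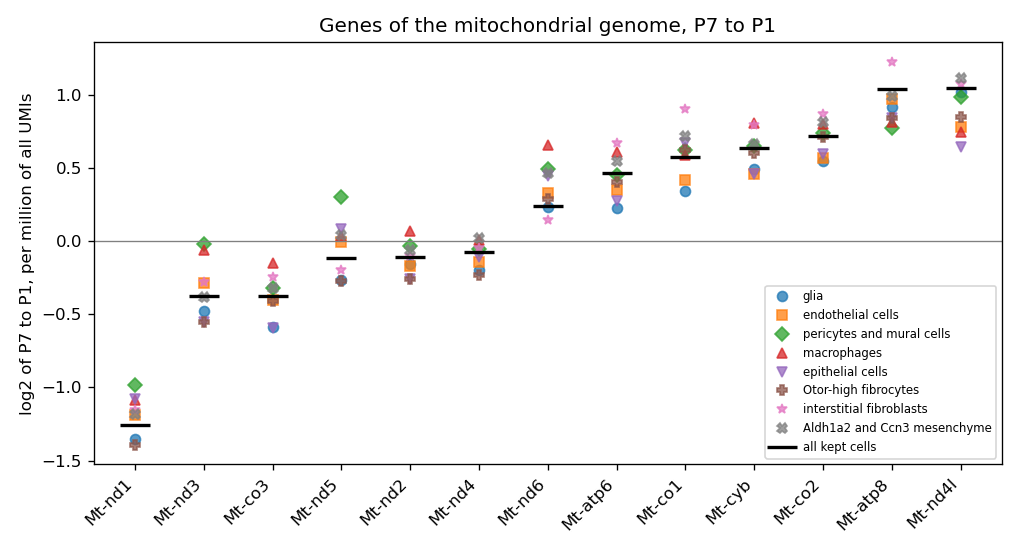
Log2 ratio of P7 to P1 for each of the 13 genes of the mitochondrial genome (CPM over all UMIs) in 8 marker gates (symbols) and over all kept cells (black bars). Mt-nd1 lay between -1.40 and -0.98 in every gate, and Mt-co1, Mt-co2, Mt-cyb, Mt-atp6, Mt-atp8 and Mt-nd4l lay above 0 in every gate.

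By complex, the nuclear members of complex II were higher at P7 and those of complex IV lower. The summed log2 ratio over all kept cells was 0.19 (0.18 to 0.21) for the 4 genes of complex II, 0.04 for complex I, 0.02 for complex III, -0.08 for complex V and -0.21 (-0.22 to -0.21) for complex IV. Without neurons these were 0.26 for complex II, 0.11 for complex I, 0.09 for complex III, 0.0099 for complex V, whose sign thus turned, and -0.09 for complex IV. The 8 assembly factors, which help to build complex I and are not part of it, gave 0.09, and 0.13 without neurons. The denominator without ribosomal protein and haemoglobin genes, lower by 0.10, puts complexes I and III and the assembly factors below 0. Complex IV was lower than complexes I, II and III in each of the 8 gates, between -0.25 in macrophages and 0.04 in epithelial cells, whereas complex II lay between 0.04 in macrophages and 0.29 in pericytes and in interstitial fibroblasts.

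In complex II, the subunits did not move together. Sdhd, a membrane anchor of the enzyme, was at 79.2 CPM at P1 and 140 CPM at P7, a log2 ratio of 0.82 (0.78 to 0.86), and was higher at P7 in 8 of 8 gates (0.49 to 1.17). Sdha, the flavoprotein that oxidises succinate, was at 68.6 and 94.8 CPM (0.47), also higher in 8 of 8 gates. The iron-sulphur subunit Sdhb, at 233 and 243 CPM, differed by a log2 ratio of 0.06, which turned to -0.04 with the denominator without ribosomal protein genes. Sdhc, the other anchor, was at 160 and 141 CPM (-0.18). The pair past the limit of 25% thus joined a catalytic subunit with an anchor.

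In complex I, 7 of 34 members over the minimum were at least 25% higher (background 38.7% of genes) and 2 at least 20% lower (background 24%). The highest ratio was that of Ndufab1, the mitochondrial acyl carrier protein, at 173 CPM at P1 and 247 CPM at P7 (log2 ratio 0.51). Ndufv2, of the NADH-binding module, was at 199 and 280 CPM (0.49). On the lower side stood Ndufa6, an accessory subunit, at 250 and 164 CPM (-0.61, -0.64 to -0.58), which was lower in 8 of 8 gates (-0.73 to -0.49). A second row for Ndufv3, under the minimum with 533 UMIs at P1 and 233 at P7, gave -1.10, whereas the main Ndufv3 row gave -0.09. Reads may be split between rows of the same symbol, so the second row is uncertain. Among the assembly factors, Ndufaf7 was at 14.9 and 26.2 CPM (0.82) and Ndufaf3 at 27.6 and 43.3 CPM (0.65), while Ndufaf1, under the minimum, was at 9.71 and 7.66 CPM (-0.34).

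In complex III, the core protein Uqcrc2 was at 157 CPM at P1 and 230 CPM at P7 (log2 ratio 0.55) and the small subunit Uqcr10 at 447 and 364 CPM (-0.30). A minor row for Uqcrb gave the highest ratio, 0.60, at 17.0 and 25.9 CPM, whereas the main row, at 498 and 528 CPM, gave 0.08, which falls below 0 with the other denominator. In complex V, none of 15 members was at least 25% higher (background 38.7% of genes) and 3 were at least 20% lower (background 24%). The highest ratio was that of Atp5mc3, one of several genes for the c ring, at 251 and 305 CPM (0.28), and the lowest that of Atp5md, a small membrane subunit, at 136 and 99.4 CPM (-0.45). Atp5mf, another small subunit of the membrane part, was at 580 and 432 CPM (-0.43). Without neurons, Atp5mc3 (0.49) was past the limit of 25%. Of the lower members, Atp5md (-0.29) and Atp5f1e (-0.28) then no longer passed the limit of 20%, while Atp5mf (-0.32) still did. Atp5if1, which blocks ATP hydrolysis by the enzyme, was at 402 and 373 CPM (-0.11), and of the 8 gates it was highest in macrophages at both ages (837 and 704 CPM, against 558 and 525 CPM in pericytes, the next of the 8). In neurons it was at 1138 CPM at P1.

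Complex IV held the highest ratio among the members over the minimum. This was Cox6b2, the testis-type isoform of Cox6b1, which was at 4.94 CPM at P1 and 10.3 CPM at P7, a log2 ratio of 1.06 (0.90 to 1.23) on 442 and 864 UMIs. Most other subunits lay below 0, among them Cox7a2l, which takes part in joining complexes into supercomplexes, at 715 and 493 CPM (-0.54), and Cox6a1 at 664 and 464 CPM (-0.52). Cox7b was at 393 and 295 CPM (-0.41). Of 16 members over the minimum, 3 were at least 25% higher, namely Cox6b2, Ndufa4l2 and Cox4i2 (background 38.7% of genes). Another 3 were at least 20% lower, namely Cox7a2l, Cox6a1 and Cox7b (background 24%). Without neurons, Cox4i2 (0.29) and Cox7b (-0.23) no longer passed these limits. The 3 that were higher are isoforms whose levels were highest in pericytes or glia among the 8 gates, and their values by gate follow with the pericyte gate.

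**Figure D3:**
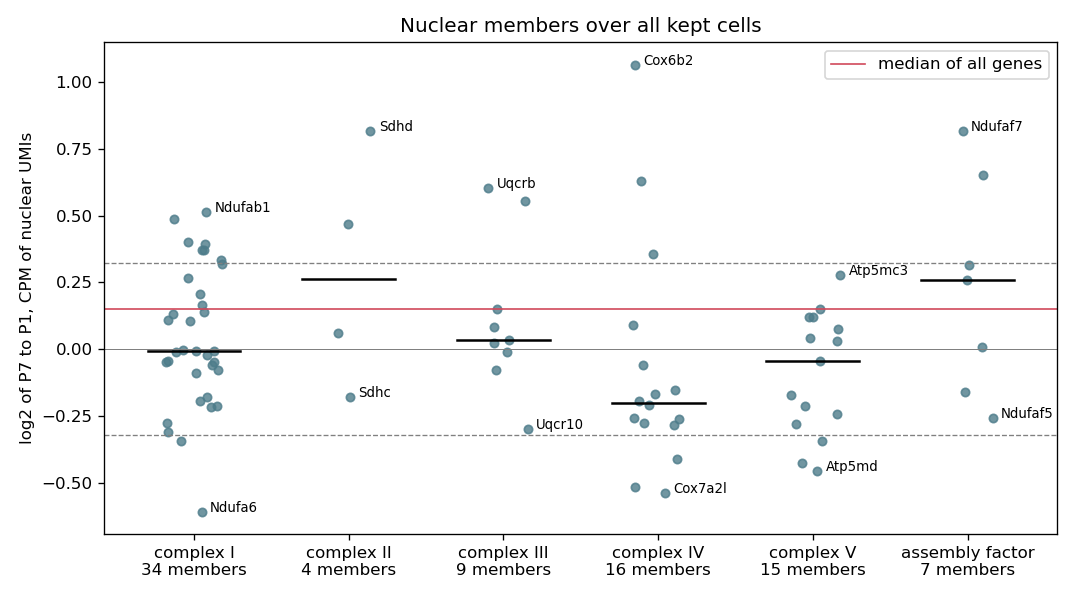
Log2 ratio of P7 to P1 (CPM of nuclear UMIs, all kept cells) for the 85 nuclear members over the minimum that belong to complexes I to V or the assembly factors. Each point is a gene row, black bars are the median of a complex, dashed lines mark 25% higher and 20% lower, and the red line is the median of all genes, 0.15. The point labelled Uqcrb is its minor row. The complex IV median was -0.20, and that of complex II 0.26.

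A further 13 nuclear members stayed under the minimum. Cox7a1, Ndufa1, a second Ndufa10l1 row and the pseudogene Cox6c-ps1 had 0 UMIs in both libraries. Cox6a2, Cox7b2, Cox8b and Cox8c, known from muscle or testis, had at most 7 UMIs in either library. Cycs had 29 and 28 UMIs, Atp5pb 14 and 11, and Ndufs6 53 and 43. Since cytochrome c and these subunits are needed in every respiring cell, the low counts say nothing of their expression. The glycolytic gene Pkm was also low, at 13.5 and 8.01 CPM, and how reads at the 3′ ends of such genes were assigned was not tested.

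Across the 8 gates, 83 nuclear members were over the minimum in each gate. Of these, 16 were higher at P7 in all 8 gates (background 27.1% of genes) and 10 were lower in all 8 (background 15.3%). Those higher in each gate included Sdha, Sdhd, Ndufv2, Ndufs8, Uqcrc2 and Atp5mc3, and those lower in each included Ndufa6, Cox6a1, Cox7a2l, Atp5mf and Atp5f1e. With ribosomal protein and haemoglobin genes out of the denominator, 11 were higher in all gates and 20 lower.

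Glia had the highest mitochondrial share of the 8 gates at both ages and the largest log2 ratio of the nuclear share. The mitochondrial share in the glia gate was 10.5% at P1 (1379 cells) and 10.7% at P7 (3191 cells), a log2 ratio of 0.03 that turned to -0.04 without ribosomal protein genes in the denominator. The nuclear share went from 2.99% to 3.31% (log2 ratio 0.15, 0.14 to 0.15). Of 84 members over the minimum in glia, 26 were at least 25% higher at P7 (background 38.6%) and 4 lower (background 27.2%). High ratios were found in the assembly factors, Ndufaf7 at 14.9 and 35.6 CPM (1.255), Ndufaf3 at 26.2 and 58.1 CPM (1.15) and Ndufaf2 at 20.9 and 41.0 CPM (0.97), and in Ndufab1 at 161 and 296 CPM (0.88). The gate made up 10.8% of kept cells at P1 and 25.4% at P7, and the part of this difference in the ratios was not tested.

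Macrophages went the other way. Their mitochondrial share was 8.10% at P1 (151 cells) and 10.4% at P7 (144 cells), a log2 ratio of 0.36 that turned to -0.04 when only cells under 10% mitochondrial UMIs were kept. Their nuclear share went from 3.49% to 3.05% (-0.19, -0.22 to -0.17). In this gate 9 of 85 members were at least 25% higher (background 43.5%) and 27 were at least 20% lower (background 21.3%), so that the share of lower members, 31.8%, was above the background. Among the lowest were Ndufb6 at 159 and 89.8 CPM (-0.83), Uqcr10 at 573 and 329 CPM (-0.80) and Ndufa6 at 250 and 150 CPM (-0.73). Sdhd (143 and 201 CPM, 0.49) was still higher. The glycolysis and lactate list summed to 3064 CPM at P1 and 2364 CPM at P7 in these cells, and haemoglobin to 1452 and 212 CPM.

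Values for the other 5 gates compared at both ages, pericytes aside, were as follows. In endothelial cells (149 and 169 cells), 14 of 85 members were higher (background 37.7%) and 13 lower (background 25.3%), and the nuclear sum had a log2 ratio of -0.05. In epithelial cells (156 and 90 cells), 18 of 84 were higher (background 41.3%) and 6 lower (background 26.5%), with sums of 0.10 for the mitochondrial and 0.06 for the nuclear part that both turned below 0 without ribosomal protein genes in the denominator or with cells under 10% mitochondrial UMIs. In the Otor-high fibrocytes, 18 of 85 were higher (background 42.5%) and 5 lower (background 20.9%), and the nuclear sum was -0.04. Interstitial fibroblasts had 16 of 85 higher (background 38.4%) and 7 lower (background 25.2%), with a nuclear sum of 0.02 and a mitochondrial share that went from 6.80% to 8.77% (0.37). In the Aldh1a2 and Ccn3 mesenchyme 21 of 85 were higher (background 42.8%) and 3 lower (background 20.9%), with a nuclear sum of 0.08. The nuclear sums of interstitial fibroblasts and of the Aldh1a2 and Ccn3 mesenchyme turned to -0.10 and -0.04 without ribosomal protein genes in the denominator.

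Neurons stood above the other kept cells for nearly every nuclear member. At P1, 331 cells with a median of 20285 UMIs gave a nuclear share of 6.25% (6.23 to 6.27) and a mitochondrial share of 12.5% (12.5 to 12.6). The nuclear share was 2.12-fold that of the other kept cells (log2 ratio 1.08). Of 86 members over the minimum, 79 were at least 25% higher in neurons than in the other cells (background 40.3%), 3 were at least 20% lower (background 37.3%), and the median log2 ratio was 1.00 against 0.03 over all genes tested.

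The subunits differed in how far they stood above the other cells. Cox5a, a nuclear subunit of complex IV, was at 1172 CPM in neurons and 286 CPM in the other cells (log2 ratio 2.04), and Cox5b at 2214 and 606 CPM (1.87). The c-ring genes of ATP synthase were split, since Atp5mc3 (781 and 217 CPM, 1.85) and Atp5mc1 (1713 and 491 CPM, 1.80) were higher and Atp5mc2 (744 and 894 CPM, -0.27) was lower by less than that limit. Atp5mc1, Atp5mc2 and Atp5mc3 encode the same mature protein behind different import sequences. The 3 members at least 20% lower in neurons were Ndufa4l2 (3.14 and 25.5 CPM, -3.02, on 17 UMIs in neurons), Cox4i2 (9.59 and 36.9 CPM, -1.94) and Ndufaf8 (84.3 and 114 CPM, -0.44). Outside the members, the pyruvate dehydrogenase and citrate cycle list summed to 2414 CPM in neurons and to between 920 and 1402 CPM in the 8 gates at P1. Glial markers summed to 1621 CPM in the neuron gate and neuronal markers to 14523 CPM.

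Depth moved with these values, since the median of 20285 UMIs in neurons compares with 6565 over all kept cells. Among neurons of up to 10000 UMIs (40 cells) the nuclear share was 4.30% and in the other cells of that depth 2.93%, while above 10000 UMIs it was 6.31% and 2.99%. The upper limit of 5000 genes removed many neurons: without it the gate held 523 cells at P1 and 26 at P7. The 25 neurons kept at P7 had a nuclear share of 5.35% and a mitochondrial share of 8.11%, and with fewer than 50 cells no comparison between the ages was made. Hair cells, 22 at P1, had 5.37% nuclear and 15.8% mitochondrial UMIs.

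Among the 8 gates compared at both ages, the pericyte gate differed from the others in its complex IV isoforms at both ages. It held 280 cells at P1 and 245 at P7, marked by Rgs5, Kcnj8, Abcc9 and other genes, none of which is a member. Ndufa4, a subunit first assigned to complex I and now placed in complex IV, and its paralogue Ndufa4l2, known to be induced by hypoxia, had opposite patterns. Ndufa4l2 was at 1260 CPM in this gate at P1 and 1798 CPM at P7, whereas the next of the 8, endothelial cells, was at 9.72 and 68.8 CPM. Ndufa4 was at 284 and 299 CPM in pericytes and in the other 7 gates it ranged from 1026 to 1285 CPM at P1 and from 938 to 1638 CPM at P7. Pericytes were thus the highest gate for the one and the lowest for the other, with no overlap with the other 7. In neurons at P1, Ndufa4 was at 3109 CPM and Ndufa4l2 at 3.14 CPM.

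Against all other kept cells, Ndufa4 in pericytes had a log2 ratio of -2.12 (-2.27 to -1.98) at P1 and -1.99 (-2.14 to -1.85) at P7. Ndufa4l2 had 7.90 (7.75 to 8.05) and 7.68 (7.56 to 7.80), and 78.5% and 76.9% of its UMIs over all kept cells lay in this gate. It was among the 10 leading genes of the gate at both ages. The endothelial value at P7 came from 91 UMIs in 10 of 169 cells, in a gate where pericyte markers summed to 388 CPM at P7 and 60.4 CPM at P1, against 9678 and 8371 CPM in the pericyte gate. The part of free RNA and of doublets in the endothelial value was not tested.

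The second pair of isoforms was not opposed in this way. Cox4i2, the isoform of the Cox4 subunit known from lung and oxygen-sensing tissue, was at 1053 and 1102 CPM in pericytes, and the next of the 8 gates, epithelial cells, was at 46.8 and 49.0 CPM. Its log2 ratio to all other cells was 5.74 (5.64 to 5.84) at P1 and 5.30 (5.20 to 5.39) at P7. The common isoform Cox4i1 was not lower: it was at 2076 and 1951 CPM in pericytes, the highest of the 8 gates, against 1240 to 1957 CPM and 1099 to 1760 CPM in the others, while neurons at P1 were at 2983 CPM. Only 44.9% and 39.0% of the Cox4i2 UMIs lay in the pericyte gate, and Otor-high fibrocytes held 623 and 1044 UMIs at the lower level of 31.2 and 48.1 CPM.

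Other paralogues followed neither pattern. Of the 8 gates, Cox8a was highest in pericytes (2274 and 2251 CPM, against 912 to 1685 CPM and 874 to 1974 CPM in the other 7), and in neurons at P1 it was at 2275 CPM, while Cox8b had at most 2 UMIs in either library. Cox6b2 was at 15.6 and 38.2 CPM in pericytes and 18.9 and 23.4 CPM in glia, above the other 6 gates, whose highest value was 7.79 CPM at P1 and 7.74 CPM at P7. The pericyte values rest on 21 and 51 UMIs. The main row of Cox6b1 was at 608 and 589 CPM in pericytes, inside the range of the other 7 gates. Cox6a1 was at 1062 and 798 CPM in pericytes, again the highest of the 8 gates, against 1564 CPM in neurons at P1, and Cox6a2 was not found in pericytes.

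**Figure D4:**
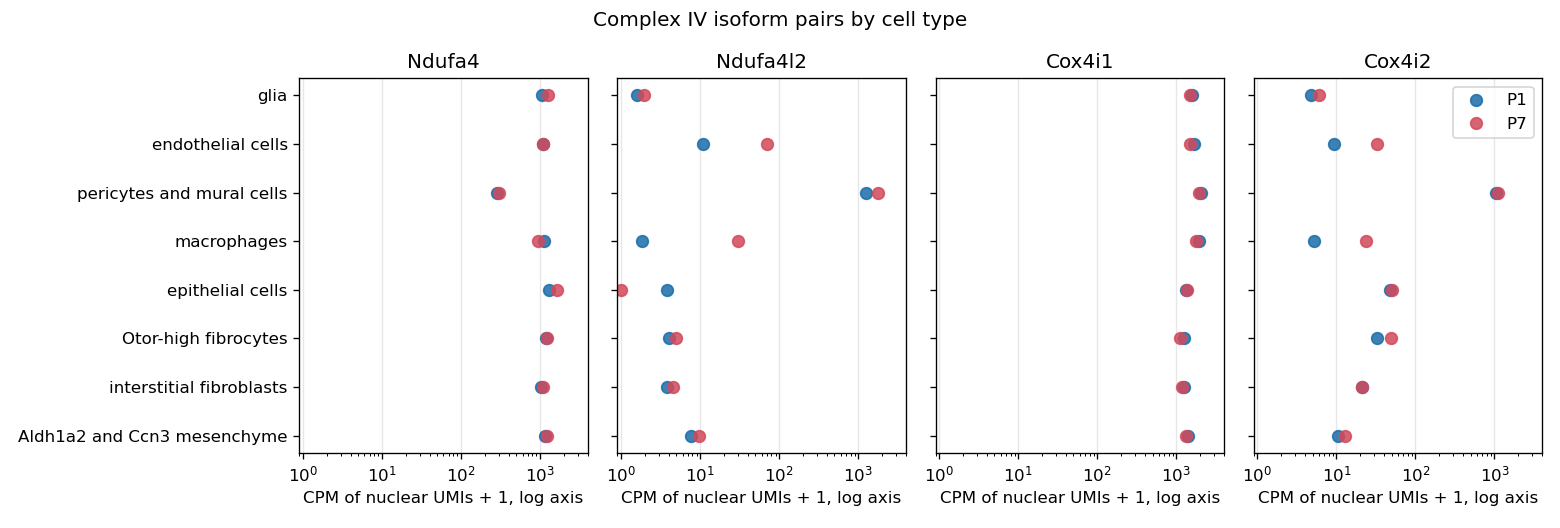
Levels of Ndufa4, Ndufa4l2, Cox4i1 and Cox4i2 (CPM of nuclear UMIs plus 1, log axis) in 8 marker gates at P1 (blue) and P7 (red). Pericytes stand alone with Ndufa4 under 300 CPM and with Ndufa4l2 and Cox4i2 above 1000 CPM, and Cox4i1 is present in every gate.

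The pericyte gate also had the highest nuclear share among the 8 gates, 3.94% (3.90 to 3.97) at P1 and 4.16% (4.13 to 4.20) at P7. Against the other kept cells, 32 of 86 members were at least 25% higher at P1 (background 30.9%) and 42 of 86 at P7 (background 28.2%), with medians of 0.21 and 0.32 against 0.02 and 0.02 over all genes. Among members with 10 CPM or more in their highest gate, pericytes were the highest of the 8 gates for 38 of 87 at P1 and 44 of 86 at P7. The same share over all genes was not counted. Between the ages 19 of 86 members were higher at P7 (background 37.5%) and 7 lower (background 24.4%), among them Sdhd (113 and 254 CPM, 1.17), Atp5mc3 (295 and 562 CPM, 0.93) and Ndufa6 (285 and 172 CPM, -0.73). The mitochondrial share, 7.74% and 9.41%, lay inside the range of the other gates. The hypoxia response list, which includes Epas1, Vegfa and Higd1b, the last among the 10 leading genes of this gate, summed to 1296 and 1435 CPM in this gate and to 196 to 647 CPM and 180 to 728 CPM in the others. Higd1b had 1152 UMIs at P1 and 1169 at P7 over all kept cells, and its part in the pericyte sums was not separated.

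The promoters of Ndufa4, Ndufa4l2, Cox4i1 and Atp5mc2 were read from RefSeq (build GRCr8), which lists 82 of the 95 distinct symbols of nuclear members. Each runs from 250 bases before to 50 bases after the start of the gene, 5′ to 3′ on the strand of the gene. The windows were searched on both strands for GCGCATGC, the core of the NRF1 site, for CCGGAAG, a core bound by ETS factors such as GABPA, and for ACGTG, the core of the site of hypoxia-inducible factors. NRF1 and GABPA are known as activators of nuclear genes for the respiratory chain. Ndufa4 lies at chr4:40975510-40975809 on the minus strand and Ndufa4l2 at chr7:65241919-65242218 on the plus strand, and both are shown for their opposite levels in pericytes. Cox4i1, at chr19:65630133-65630432 on the plus strand, is the isoform found in every gate, and Cox4i2 is not shown. Atp5mc2, at chr7:135678169-135678468 on the minus strand, is the most abundant member with an NRF1 core. Capitals mark the matches.
Ndufa4: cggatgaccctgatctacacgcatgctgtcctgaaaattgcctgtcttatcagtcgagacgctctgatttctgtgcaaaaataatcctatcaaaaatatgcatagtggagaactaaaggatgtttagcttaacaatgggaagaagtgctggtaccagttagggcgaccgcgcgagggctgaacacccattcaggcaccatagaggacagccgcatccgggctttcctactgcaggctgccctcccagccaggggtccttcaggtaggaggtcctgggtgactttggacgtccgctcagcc
Ndufa4l2: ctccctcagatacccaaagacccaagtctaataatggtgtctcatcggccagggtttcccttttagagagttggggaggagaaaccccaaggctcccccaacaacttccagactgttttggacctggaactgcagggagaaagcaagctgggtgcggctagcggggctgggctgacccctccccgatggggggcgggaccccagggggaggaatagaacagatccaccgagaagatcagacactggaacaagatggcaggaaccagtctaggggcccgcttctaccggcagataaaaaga
Cox4i1: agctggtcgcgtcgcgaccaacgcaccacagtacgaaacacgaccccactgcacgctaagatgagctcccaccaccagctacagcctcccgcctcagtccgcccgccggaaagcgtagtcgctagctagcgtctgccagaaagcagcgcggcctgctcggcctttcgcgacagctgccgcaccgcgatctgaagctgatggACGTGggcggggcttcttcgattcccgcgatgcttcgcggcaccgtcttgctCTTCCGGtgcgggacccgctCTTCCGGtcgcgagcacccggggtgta
Atp5mc2: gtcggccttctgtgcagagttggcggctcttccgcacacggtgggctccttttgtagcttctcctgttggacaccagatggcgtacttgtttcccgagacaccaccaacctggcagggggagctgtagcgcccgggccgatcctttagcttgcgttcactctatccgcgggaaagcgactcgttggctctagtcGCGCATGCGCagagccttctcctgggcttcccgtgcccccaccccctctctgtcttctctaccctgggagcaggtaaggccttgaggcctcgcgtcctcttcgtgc

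The Cox4i1 window held 3 matches, 1 for hypoxia-inducible factors and 2 ETS cores, and the Atp5mc2 window 2 overlapping NRF1 cores, 1 on each strand. The windows of Ndufa4 and Ndufa4l2 held none of the 3 motifs, which says only that these letters are not in these 300 bases. Over the members, the NRF1 core was found in 12 of 82 windows (14.6%, against 2.66% of 27457 promoters), the ETS core in 21 (25.6%, against 9.22%) and ACGTG in 23 (28.0%, against 19.7%). Besides Atp5mc2, the windows with an NRF1 core include Atp5mg, Atp5po, Ndufa11, Sdhb, Ndufa6, Uqcrc1 and Cycs. A match is a run of letters, and binding was not measured.

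Other mitochondrial lists were compared between the ages over all kept cells, where 38.7% of all genes were at least 25% higher and 24% lower. These cells include the neuron gate, 331 cells at P1 and 25 at P7, and its part in the list values was not tested. Of 70 mitochondrial ribosome genes over the minimum, 30 were higher and 3 lower, with a median log2 ratio of 0.27. In glia 47 of 70 were higher (background 38.6%) and 1 lower (background 27.2%), with a median of 0.55. In macrophages 18 of 69 were higher (background 43.5%) and 7 lower (background 21.3%), with a median of 0.02. The order of these gates was the same as for the nuclear members. Cytosolic ribosomal protein genes gave 1 of 76 higher and 43 lower (median -0.37). In the pyruvate dehydrogenase and citrate cycle list 5 of 14 were higher, among them Fh (34.0 and 63.5 CPM, 0.90) and Pdhb (46.5 and 86.9 CPM, 0.90), and 2 were lower, Pdha1 (64.2 and 46.9 CPM, -0.45) and Cs (10.4 and 4.47 CPM, -1.22). Of the carriers and porins, 4 of 8 were higher, among them the ADP/ATP carrier Slc25a5 (252 and 407 CPM, 0.69) and Vdac3 (249 and 356 CPM, 0.52), and 1 was lower, Ckmt1 (12.3 and 1.90 CPM, -2.70). By gate, 1 gene of this list was lower in endothelial cells and 1 in epithelial cells, and 0 in each of the other gates compared.

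The lists outside the mitochondria, again over all kept cells with neurons included, were mixed. Glycolysis and lactate genes gave 4 of 16 higher, with Ldhb at 421 and 706 CPM (0.75), and 6 lower, with Hk1 at 16.4 and 4.51 CPM (-1.86). Among the regulators of mitochondrial biogenesis, 3 of 6 over the minimum were higher and 0 lower: Esrra (7.16 and 16.2 CPM, 1.18), Tfb2m (10.9 and 17.1 CPM, 0.65) and Nrf1 (12.6 and 16.0 CPM, 0.34), while Tfam, which packs and transcribes mitochondrial DNA, was at 73.4 and 80.5 CPM (0.13). Ppargc1a was under the minimum at 1.80 and 1.99 CPM. The hypoxia response list gave 3 of 6 higher and 0 lower. All 4 haemoglobin genes were higher at P7 over all kept cells, with a sum of 847 and 1752 CPM. The erythroid gate held 20 cells at P1 and 64 at P7, and haemoglobin made up 20.6% and 17.3% of its nuclear UMIs. The log2 ratio of the sum was -3.16 in endothelial cells and -2.78 in macrophages, and above 0 in the other gates compared. The part of erythroid cell number in the sum was not tested.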

How the data were processed

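UMIs from 10x Chromium 3′ libraries were measured in 1 library per age. The authors aligned the reads to rat build rn6 with Cell Ranger 3.1.0 and deposited raw counts per gene and barcode, without normalization. The files list several symbols on more than 1 row, which were kept apart by Ensembl identifier. Cells were kept under the study's limits. Each cell was scored for 16 marker lists and gated where at least 3 markers were detected, the score was at least 0.2 and it was 1.5 times that of the next list. This left 74.6% (P1) and 76.5% (P7) of cells in a gate. Counts were summed per gate, so cells were not taken as replicates. No step against free RNA was run, and doublets were removed in an alternative only (Scrublet in scanpy 1.11.5, which called 4.87% and 6.16% of cells). Ratios of sums have exact conditional intervals. The ratio, its interval and the call were tested on simulated counts of whole libraries, and the filtering and gating of cells were not. A call is a level at least 25% higher or 20% lower, at 10 CPM or more in the higher sample. The members, the lists and the marker genes were chosen with earlier results of these data known. The genes named are all mitochondrial genes, the extremes of each complex among those with 200 UMIs, the 5 largest rises, falls and ratios between gates, the isoform pairs, complex II, Cycs, Atp5if1 and the comparison lists. Other genes were named after their values were seen, the strongest in neurons, glia, macrophages and pericytes among them. A result on the makeup of the glia gate is not reported here. Analysis used Python 3.11.15, numpy 2.4.6, scipy 1.17.1, pandas 2.3.3 and matplotlib 3.10.9.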

Additional observations from a re-analysis of the deposited data

Results flagged for a closer look

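The nuclear share of endothelial cells, macrophages and Otor-high fibrocytes was lower at P7, with log2 ratios of -0.048, -0.19 and -0.036, whereas it was higher in the other 5 gates with both ages. The difference between these gates was not tested, since each age is 1 library.

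Outside the members, the ribosomal and transfer RNA rows of the mitochondrial genome made up 1.2498% of UMIs in the P1 library and 1.45% in the P7 library. They were left out of the nuclear denominator and of the mitochondrial sums.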

How the results depend on the processing

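No paired analysis was possible because each age is 1 library, and for the same reason no replicate could be left out. The log2 ratio of the mitochondrial share over all kept cells, 0.22, was 0.25 without a mitochondrial limit, 0.21 under 10% mitochondrial UMIs, 0.22 without Scrublet doublets, 0.19 without an upper gene limit, 0.30 in cells of 4000 to 10000 UMIs, 0.24 with nuclear UMIs as denominator, 0.14 without ribosomal protein and haemoglobin genes in it, 0.27 with cells weighing the same, 0.21 with gates weighing the same and 0.28 without neurons. For the nuclear ratio, -0.07, the swapped denominator was all UMIs, which gave -0.091. In the same order without the first, the nuclear ratio was -0.011, -0.074, -0.12, 0.017, -0.091, -0.17, -0.014, 0.016 and 0.024, and it was -0.081 without dividing cells. Its sign thus depended on which cells were included. The 16 higher members became 10 without ribosomal protein and haemoglobin genes in the denominator or with a minimum of 50 CPM, and 6 at 1.5-fold. The 8 lower members became 5 under 10% mitochondrial UMIs, 17 without the gene limit, 19 with that denominator, 1 at 1.5-fold, and 4 in cells of 4000 to 10000 UMIs, with gates weighing the same or without neurons.

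Neurons against the other cells, 1.08, gave 1.05 without a mitochondrial limit, 1.04 under 10%, 1.10 without doublets, 1.12 without dividing cells and 0.92 with that denominator. Pericytes against the other cells gave 0.33 at P1 and 0.48 at P7. Under 10% mitochondrial UMIs these were 0.40 and 0.50, at 4000 to 10000 UMIs 0.44 and 0.53, without dividing cells 0.34 and 0.50, and with that denominator 0.20 and 0.41, and without doublets the P7 value was 0.50. Of 190 values by gate, 8 changed sign: under 10%, the mitochondrial ratio of macrophages (-0.037) and both ratios of epithelial cells (-0.0086 and -0.0082), and with that denominator the mitochondrial ratio of glia (-0.035) and of epithelial cells (-0.030) and the nuclear ratio of epithelial cells (-0.081), interstitial fibroblasts (-0.098) and the Aldh1a2 and Ccn3 mesenchyme (-0.037). Epithelial cells and neurons had too few cells of 4000 to 10000 UMIs for a value. A gate score of 0.3, leaving out neurons and both alternatives by complex were chosen after seeing the data. By complex, over all kept cells, complex V (-0.081) was 0.0099 without neurons, and with that denominator complex I (0.036) was -0.067, complex III (0.024) -0.079 and the assembly factors (0.091) -0.012. The cause was not tested for any of these.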
